A study of Mus musculus with 12 samples.

Results

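Mitochondrial and peroxisomal fatty acid oxidation is described here through 35 genes in the aorta of mice that lack apolipoprotein E (ApoE-/-), an animal that clears lipoproteins poorly and develops atherosclerosis. The genes were taken by name, from knowledge of the pathway and of the targets of the nuclear receptor PPAR-alpha, with earlier results of these data known. All 35 were found, among 22183 genes in the deposited table, and each matched 1 protein-coding gene of GENCODE M21 on GRCm38. RNA sequencing covered the length of the aorta, ascending portion through to where it divides, with 12 libraries in 3 groups of 4. All animals were male ApoE-/- mice, 8 weeks old at the start, with 60 mice divided at random among the groups, and every group carried the same Apoe deletion. The NFD group ate a normal diet with 5% fat and no cholesterol, and received saline. The HFD group ate a diet with 16% fat and 0.25% cholesterol, and received saline. The HFD+TUDCA group ate the diet of the HFD group and received, from the end of week 8 on, 1000 mg/kg of tauroursodeoxycholic acid (TUDCA, a taurine-conjugated bile acid) by gavage daily for 4 weeks. The labels do not say whether each library came from 1 animal, so p-values measure the spread between these libraries, which may be technical.

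Long-chain fatty acids are activated to acyl-CoA and carried into mitochondria by the carnitine shuttle, whose entry enzyme, Cpt1, is the controlled step. Inside, a repeating spiral of dehydrogenation, hydration, a further dehydrogenation and thiolysis shortens the chain, and electrons leave through the electron transfer flavoprotein. PPAR-alpha, which fatty acids activate, raises the transcription of many of these enzymes and of their peroxisomal counterparts. The pathway is most active in heart, brown fat, liver and oxidative muscle, while an aorta dissected with its surroundings also holds smooth muscle, endothelium, macrophages and perivascular fat.

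Libraries held 15199317 to 22061692 counts. The deposited Apoe level ran from 9.88 to 28.9 FPKM, a unit that divides fragments by gene length and depth, over the 12 libraries. These counts per gene do not show which exons the reads cover. In a principal component analysis, HFD+TUDCA replicate 4, HFD replicate 4 and HFD replicate 1 lay farthest from the centre. Mitochondrially encoded genes took 8.56% to 19.2% of the counts, with the highest share in HFD+TUDCA replicate 4. Levels are given as counts-per-million values (CPM) with TMM scaling, with ± for the SD of a group's 4 libraries. A log2 fold change has its SE after ±, and a gene was called changed at an adjusted p under 0.05 in the quasi-likelihood test of edgeR.

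Some members have near copies, and the sequences show how alike they are. The cytosolic thioesterase Acot1 and its mitochondrial relative Acot2 lie close together on chromosome 12. Over 1236 aligned coding bases they are 95.31% identical, with a longest identical run of 273 bases. The 90 coding bases below start at the first base of Acot1 and at base 124 of Acot2, and capitals mark the 11 bases that differ.
Acot1: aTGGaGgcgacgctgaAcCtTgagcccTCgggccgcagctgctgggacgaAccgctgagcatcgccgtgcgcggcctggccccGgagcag
Acot2: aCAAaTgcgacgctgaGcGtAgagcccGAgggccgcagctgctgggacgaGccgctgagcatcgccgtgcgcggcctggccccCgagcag
The peroxisomal thiolases Acaa1b, a member, and Acaa1a, also on chromosome 9, are closer still, with 96.54% identity over 1272 coding bases and an identical run of 327 bases. Their first 90 coding bases differ at 3 places, in capitals.
Acaa1b: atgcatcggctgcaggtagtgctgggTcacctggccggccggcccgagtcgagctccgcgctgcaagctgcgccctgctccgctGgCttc
Acaa1a: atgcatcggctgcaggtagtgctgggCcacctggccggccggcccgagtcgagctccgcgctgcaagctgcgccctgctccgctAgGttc
Of the windows of 75 bases in its annotated transcripts, Acaa1b shares 28.5% with Acaa1a, and Acot1 shares 19.4% with Acot2. The deposited counts of Acaa1b, Acot1 and Acot2 were not whole in any library, as when reads are divided between genes, and these counts are uncertain. The same holds for Cpt1b, Acadvl, Acad10, Etfb and Acot11, which also had fractional counts in all 12 libraries. Cpt1b shares 79.4% of such windows with the annotated gene Gm44502, whose own level was 9.36 to 23.8 CPM. Acadvl and Acot11 overlap genes on the opposite strand, Dvl2 and Fam151a, and reads of the 2 strands cannot be told apart unless the counting used strand, which is not stated.

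Per length, the members spanned a wide range of levels. Hadhb, the thiolase subunit of the mitochondrial trifunctional protein, had the highest mean of the 12 libraries at 869.9 FPKM. It was followed by the mitochondrial thiolase Acaa2 at 729.0 FPKM, the flavoprotein subunit Etfb at 696.0 FPKM and the very-long-chain dehydrogenase Acadvl at 660.7 FPKM. At the low end stood Ppara at 16.5 FPKM, Acot2 at 13.7 FPKM, Acad10 at 10.2 FPKM and Acot1 at 7.63 FPKM. Of the Cpt1 forms, the muscle and brown fat form Cpt1b averaged 167.9 FPKM and the broadly expressed form Cpt1a 22.2 FPKM.

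The members were high or low together in the same libraries, and the groups overlapped. Summed over the 35 members, the level was 11256, 13749, 14796 and 13503 CPM in NFD replicates 1 to 4. In HFD it was 8781, 12933, 21328 and 11382 CPM. In HFD+TUDCA it was 22485, 21188, 13201 and 27739 CPM. HFD replicate 3 and HFD+TUDCA replicates 1, 2 and 4 were thus the 4 highest libraries, while HFD+TUDCA replicate 3 lay within the range of NFD. All 35 members were above their own 12-library mean in HFD replicate 3 and in HFD+TUDCA replicate 2, against 1 member in NFD replicate 1 and 2 in HFD replicate 4. Within their groups, HFD replicate 3 held the highest value of 30 members, HFD+TUDCA replicate 3 the lowest of 32 and NFD replicate 1 the lowest of 29. The median coefficient of variation of a member was 15.1% in NFD, 38.9% in HFD and 32.6% in HFD+TUDCA. Cpt1a was the steadiest member in both high-fat groups, at 8.95% in HFD and 8.18% in HFD+TUDCA.

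**Figure D1:**
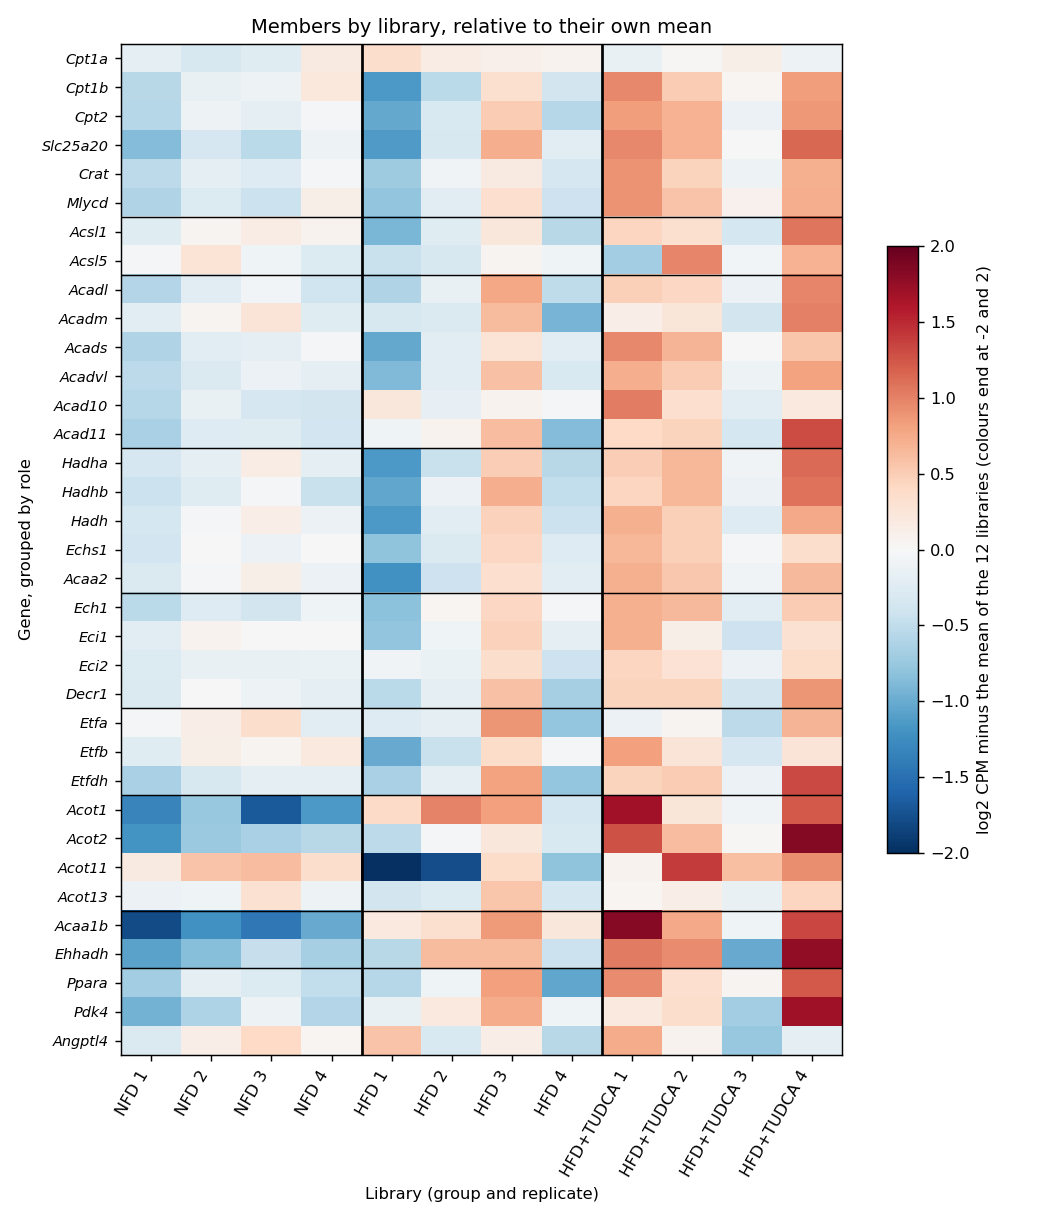
Each cell is the log2 CPM of a member (rows, by role) in a library (columns) minus the mean of that member over the 12 libraries. Columns stand out more than rows, with all 35 members above their mean in HFD replicate 3 and in HFD+TUDCA replicate 2.

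Marker genes of other tissues were read beside the members. Brown adipocyte markers (10 genes, among them Ucp1, Cidea and Elovl3) summed to 3048, 3773, 3381 and 4685 CPM in the NFD replicates in order. They summed to 971, 1584, 3804 and 3190 CPM in HFD, and to 6207, 5848, 3355 and 7487 CPM in HFD+TUDCA. In HFD+TUDCA the 4 libraries had the same order in both sums. In HFD replicate 3 was highest and replicate 1 lowest in both, but replicate 4 had a higher brown adipocyte sum than replicate 2 and a lower member level. In NFD replicate 3 had the highest member level and replicate 4 the highest brown adipocyte sum. Zic1 was at 0 in 4 libraries, and no other brown adipocyte marker was at 0. Slc27a2 stands both in this list and in a list of PPAR targets used below. Heart muscle markers (10 genes) summed to 3159 to 8678 CPM in NFD. Their HFD sums were 351 to 2439 CPM and their HFD+TUDCA sums 46.5 to 10470.5 CPM, with Myl2 at 0 in HFD replicate 1. Their order differed from that of the members: the heart sum was lowest in HFD+TUDCA replicate 4, where the member level was highest, and highest in HFD+TUDCA replicate 3. White adipocyte markers ran from 11639 to 16318 CPM over the NFD libraries, with HFD sums of 8845 to 12820 CPM and HFD+TUDCA sums of 8644 to 18422 CPM, and none was at 0. In bulk tissue, fewer cells of a type and less RNA per cell cannot be told apart.

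**Figure D2:**
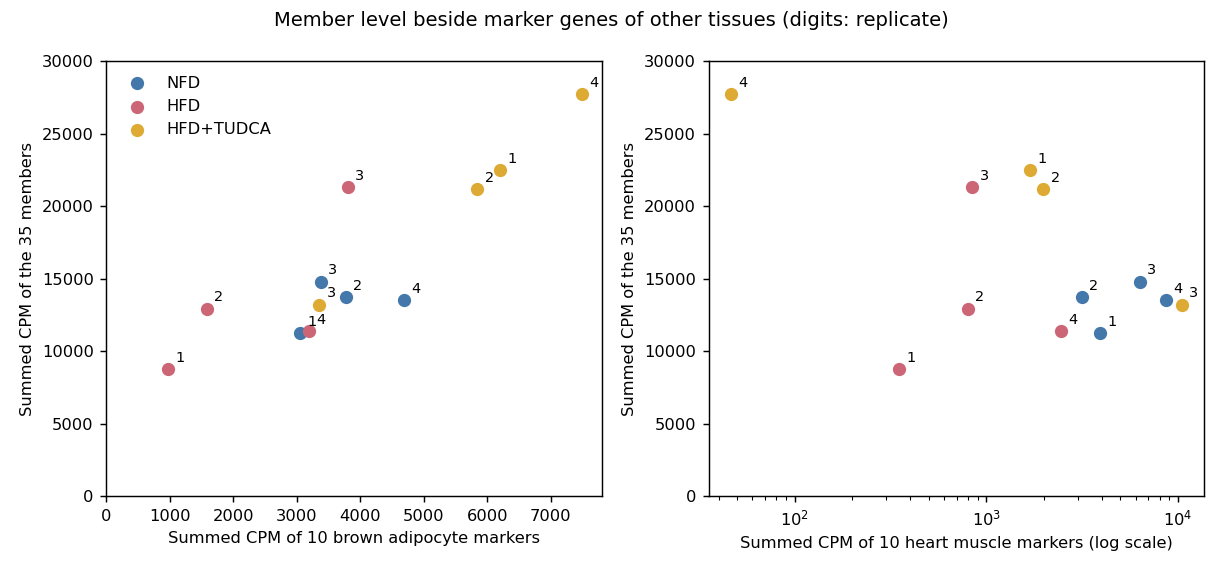
Each point is a library, with its replicate number; the vertical axis is the summed CPM of the 35 members, and the horizontal axis is the summed CPM of 10 brown adipocyte markers (left) or 10 heart muscle markers (right, log scale). HFD+TUDCA replicate 4 has the highest member sum (27739 CPM), the highest brown adipocyte sum (7487 CPM) and the lowest heart sum (46.5 CPM).

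The first comparison, HFD vs NFD, asks what the high-fat diet changed. Of the 35 members, 2 were called, both higher: Acaa1b, a peroxisomal thiolase, and Acot1, a cytosolic thioesterase. This is 5.71% of the members, against 4.83% of the 14918 genes tested, or 3.18% for higher genes. At an unadjusted p under 0.05 there were 7 members, against 21.0% of all genes, and 3 members were higher in every HFD library than in any NFD library, against 8.10% of all genes. The median log2 fold change of the members was 0.05, and that of all genes tested 0.04.

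Acaa1b carries out the last step of peroxisomal beta-oxidation. Its level was 8.56, 12.9, 11.1 and 14.7 CPM in NFD and 34.1, 37.4, 54.0 and 34.9 CPM in HFD. Every HFD library was above every NFD library. The log2 fold change was 1.77 ± 0.215, a 3.41-fold rise, with an edgeR adjusted p of 0.00311. Acaa1a ran at 100.2 ± 13.3 CPM in NFD and 101.9 ± 18.9 CPM in HFD, so the ratio of Acaa1b to Acaa1a spanned 0.0994 to 0.127 in the NFD libraries and 0.276 to 0.531 in the HFD libraries, without overlap. With the counts of Acaa1a and Acaa1b summed, the log2 fold change was 0.35 and the call was lost, with an edgeR adjusted p of 0.233. Acaa1a, at similar levels in both groups, made up most of that sum, so a smaller value follows by construction. The summed fit therefore does not test how reads were divided between these genes. With the heart marker sum as a covariate the log2 fold change of Acaa1b was 1.87, and the call was lost at an edgeR adjusted p of 0.0676. That fit called 160 of all genes, against 720 in the main fit.

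Acot1 releases free fatty acids from acyl-CoA in the cytosol and is a known PPAR-alpha target. It was at 4.02, 6.01, 3.12 and 4.57 CPM in NFD and at 13.4, 20.4, 18.1 and 8.02 CPM in HFD, again without overlap. The log2 fold change was 1.76 ± 0.326, a 3.39-fold rise, with an edgeR adjusted p of 0.0180. This call was lost without NFD replicate 1, 3 or 4 (edgeR adjusted p of 0.0707, 0.0725 and 0.0617), where the log2 fold change was 1.72, 1.59 and 1.77. Over all genes, calls went from 720 to 188, 178 and 282 in these fits. The call of Acot1 was also lost with the brown adipocyte marker sum as a covariate, at 1.71 (edgeR adjusted p of 0.0880), and with the heart marker sum, at 0.92 (edgeR adjusted p of 0.354). Those covariate fits called 201 and 160 of all genes. With Acot1 to Acot5 summed into 1 row, the log2 fold change was 1.14 with an edgeR adjusted p of 0.00922.

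Acot2 hydrolyses acyl-CoA inside mitochondria. It was at 11.2, 15.2, 16.3 and 17.3 CPM in NFD and 17.8, 25.3, 30.1 and 20.6 CPM in HFD, so the groups did not overlap, but it was not called (log2 fold change 0.65 ± 0.204, edgeR adjusted p of 0.107). The ratio of Acot1 to Acot2 spanned 0.191 to 0.395 over the NFD libraries and 0.390 to 0.806 over the HFD libraries, where replicate 4 lay within the NFD range. Acot11, also known as brown fat-inducible thioesterase, had the largest difference in the other direction, with a log2 fold change of −1.23 ± 0.518 and an edgeR adjusted p of 0.216. It was at 174.1, 227.7, 235.1 and 194.8 CPM in NFD and at 26.4, 44.8, 197.6 and 87.8 CPM in HFD, where replicate 3 lay within the NFD range. Without HFD replicate 3, Acot11 was called lower. Acot13 had a log2 fold change of −0.06 ± 0.220.

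Ehhadh, the bifunctional enzyme of the peroxisome, was at 27.8, 32.1, 42.5 and 36.8 CPM in NFD and 39.5, 90.5, 90.1 and 43.1 CPM in HFD. HFD replicates 2 and 3 were well above the others, and HFD replicate 1 lay within the NFD range. Its log2 fold change was 0.92 ± 0.290 with an edgeR adjusted p of 0.105. Pdk4, the kinase that shuts off pyruvate dehydrogenase and a PPAR target, was at 298.2, 376.0, 535.1 and 383.1 CPM in NFD and 520.6, 660.4, 958.7 and 539.1 CPM in HFD. Only NFD replicate 3 reached into the HFD range. Its log2 fold change was 0.76 ± 0.242 with an edgeR adjusted p of 0.112, and it was called with the replicate number as a block (0.0313) and in DESeq2 (0.0335). The receptor itself, Ppara, was at 25.8, 36.7, 34.6 and 29.7 CPM in NFD and 28.3, 39.5, 74.0 and 20.5 CPM in HFD, with a log2 fold change of 0.35 ± 0.346. Angptl4, a secreted inhibitor of lipoprotein lipase, stood at 226.5 ± 43.2 CPM in NFD and 216.2 ± 74.99 CPM in HFD.

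None of the other role groups had a called member in HFD vs NFD by edgeR or by DESeq2, and Acad10 was their 1 gene at an unadjusted p under 0.05. In the carnitine shuttle the lowest p was that of Cpt1a, at 86.0 ± 13.8 CPM in NFD and 106.2 ± 9.50 CPM in HFD (log2 fold change 0.32 ± 0.146, edgeR adjusted p of 0.255). Of the synthetases that make acyl-CoA, Acsl1 went from 1128 ± 127 to 901 ± 306 CPM (−0.32 ± 0.235, edgeR adjusted p of 0.486). Of the 6 acyl-CoA dehydrogenases, Acad10 was at 28.0 ± 3.39 CPM in NFD and 36.4 ± 4.17 CPM in HFD (0.39 ± 0.150, edgeR adjusted p of 0.175). Among the later spiral enzymes, Acaa2 had a log2 fold change of −0.21 ± 0.279 (edgeR adjusted p of 0.736), and its sign turned without HFD replicate 1. Ech1, an isomerase for unsaturated chains, had 0.26 ± 0.238 (edgeR adjusted p of 0.587), and Etfb −0.23 ± 0.260 (edgeR adjusted p of 0.677).

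**Figure D3:**
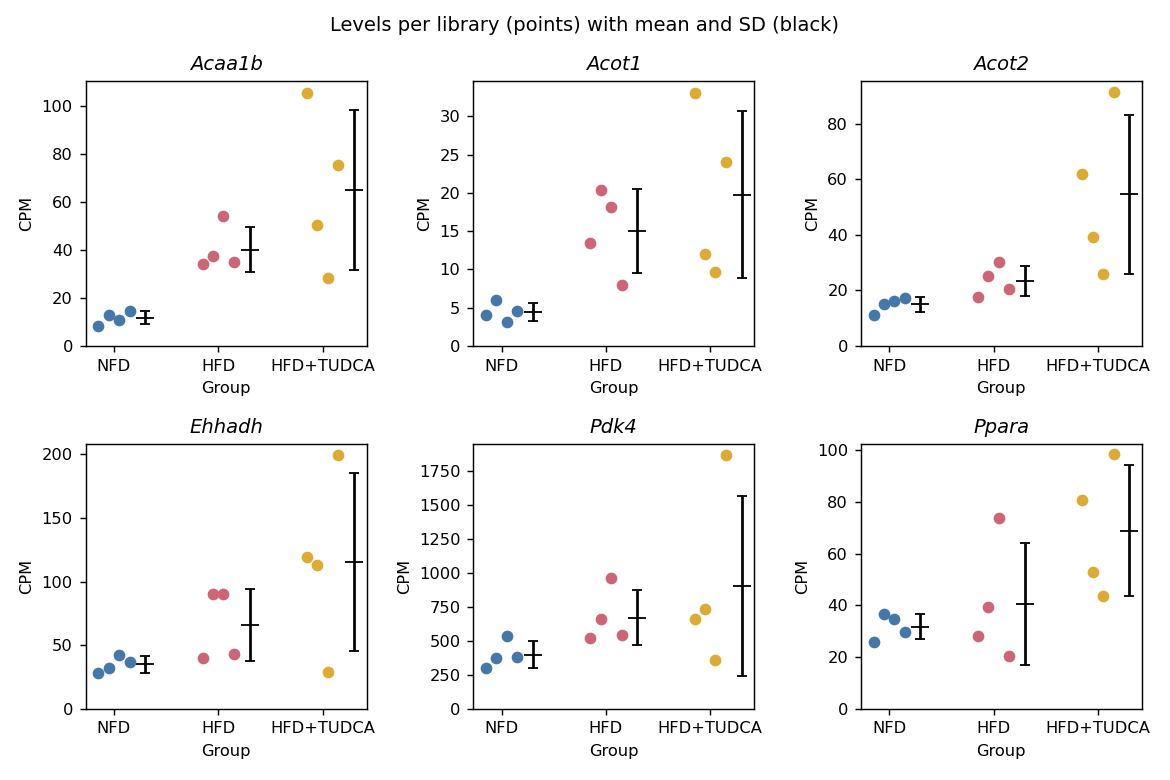
CPM of 6 members in each library (points, in replicate order from left to right), with mean and SD in black, in the NFD, HFD and HFD+TUDCA groups. Acaa1b and Acot1 in HFD lie above every NFD library, and for each of these 6 genes the SD in CPM is largest in HFD+TUDCA, as for Pdk4 (903.6 ± 662 CPM).

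Other genes of the pathway were read from 6 lists. In HFD vs NFD, 3 of their 97 tested genes were called, against 4.83% of all genes tested. In the list of other peroxisomal beta-oxidation genes, 1 of 18 tested rose, the thioesterase Acot4 of the same gene cluster as Acot1, which stood at 2.09 ± 0.584 CPM in NFD and 8.44 ± 1.53 CPM in HFD, with a log2 fold change of 2.02 ± 0.265 (edgeR adjusted p of 0.00426). Acot3, also of that cluster, had 0 counts in all NFD libraries and 3, 15, 6 and 10 counts in HFD, and it did not reach the count filter. Of 24 tested PPAR target and lipid handling genes, 1 fell, the acetyl-CoA synthetase Acss2 (235.6 ± 109 to 64.7 ± 22.3 CPM, a log2 fold change of −1.86 ± 0.357, edgeR adjusted p of 0.0210). Of 23 regulators, 1 fell, Lpin1, a phosphatidate phosphatase that also acts as a PPAR-alpha coactivator (427.8 ± 77.4 to 206.6 ± 53.3 CPM, a log2 fold change of −1.04 ± 0.217, edgeR adjusted p of 0.0277). No gene of the other lists passed, and DESeq2 called 7 genes over the 6 lists, against 11.4% of all genes. The lowest p in 2 of these lists were those of Pdhb, a subunit of pyruvate dehydrogenase (−1.38 ± 0.373, edgeR adjusted p of 0.0671), and Bdh1, a dehydrogenase of ketone bodies (−0.67 ± 0.240, edgeR adjusted p of 0.149). Of the 16 tricarboxylic acid cycle genes 14 had a negative log2 fold change, with a median of −0.24. With the replicate block 5 genes of these lists were called, and with the white adipocyte sum as a covariate 0, so that the calls of Acot4, Acss2 and Lpin1 were lost. Over all genes the replicate block called 776 and the white adipocyte covariate 37. Without NFD replicate 1, NFD replicate 3 or HFD replicate 1 there was 1 call in these lists, and without HFD replicate 3 there were 10. Calls over all genes in these fits were 188, 178, 473 and 1181, in the same order.

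Other tissues moved with the same contrast. Of the 10 macrophage markers 8 rose, and their sum, at 569 to 714 CPM in the NFD libraries, was at 1877 to 3504 CPM in the HFD libraries. Of the heart markers 2 of 10 were called lower, of the white adipocyte markers 1 of 10 and of the smooth muscle markers 1 of 10. Over all genes tested 1.64% were called lower. All 10 markers of each of these lists had a negative log2 fold change, with medians of −2.04, −0.58 and −0.39. At an unadjusted p under 0.05 were 9, 6 and 3 of them, against 8.99% of all genes for lower ones. Of the 9 tested brown adipocyte markers 0 were called by edgeR, and 2 were at an unadjusted p under 0.05, both higher. The brown adipocyte markers went both ways, with 3 positive and 6 negative log2 fold changes, such as 2.06 ± 0.597 for Elovl3 and −1.12 ± 0.522 for Ucp1. The heart sums of the NFD and HFD libraries did not overlap, so the heart covariate cannot be told apart from the diet. Over all genes, calls went from 720 to 160 with the heart covariate, 201 with the brown and 37 with the white adipocyte covariate. A call lost in these fits therefore does not show the part of a tissue in the member results, which was not tested otherwise.

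The second comparison, HFD+TUDCA vs HFD, asks what TUDCA changed under the high-fat diet. The members were higher on average with TUDCA, but none passed the test and no member separated the groups. Of the 35 members 0 were called, as were 0 of 14587 genes (0%). DESeq2 called 343 genes and 0 members. At an unadjusted p under 0.05 there were 9 members, all higher, against 5.42% of all genes. No member had groups that did not overlap, against 7.53% of all genes. The log2 fold change was positive for 34 members, against 7295 of 14587 genes tested, with a median of 0.67 against 0.00011 for all genes. Since the members vary together across libraries, these are not 34 separate observations.

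This median stayed between 0.51 and 0.90 when any 1 library was left out. Without HFD replicates 1 and 4 and HFD+TUDCA replicate 4 together, the libraries farthest from the centre, it was 0.20, with 22 positive members and none at an unadjusted p under 0.05. These 3 hold the 2 lowest member sums of HFD and the highest of HFD+TUDCA, so leaving them out lowers the difference by construction. With the brown adipocyte marker sum as a covariate, the median was −0.04, with 15 positive members. That sum itself ran from 971 to 3804 CPM in HFD and from 3355 to 7487 CPM in HFD+TUDCA, where it ordered the libraries as the members did. This fit therefore cannot separate a difference in the members from one in the brown adipocyte markers. Of 9 tested brown adipocyte markers, 9 had a positive log2 fold change, 3 were at an unadjusted p under 0.05 and 0 were called by edgeR. Ucp1, the uncoupling protein of brown fat, averaged 1067 ± 783 CPM over the HFD libraries and 3555 ± 1191 CPM over those with TUDCA.

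By role, the lowest p belonged to the thioesterase Acot2, at 61.9, 39.1, 26.1 and 91.3 CPM in HFD+TUDCA. Replicate 3 lay within the HFD range. Its log2 fold change was 1.26 ± 0.379 with an edgeR adjusted p of 0.292. Mlycd, which removes the malonyl-CoA that inhibits Cpt1, went from 75.3 ± 25.3 to 132.4 ± 29.7 CPM (0.84 ± 0.269, edgeR adjusted p of 0.310). Acads, the short-chain dehydrogenase, went from 219.1 ± 75.1 to 385.7 ± 101 CPM (0.84 ± 0.297, edgeR adjusted p of 0.347). Hadha, the hydratase and dehydrogenase subunit of the trifunctional protein, went from 725 ± 367 to 1361 ± 458 CPM (0.94 ± 0.390, edgeR adjusted p of 0.393). For the other roles, with the edgeR adjusted p in brackets, the log2 fold change of Acsl1 was 0.80 ± 0.355 (0.419), that of Acaa1b 0.72 ± 0.373 (0.479), that of Ppara 0.79 ± 0.425 (0.489), Ech1 0.52 ± 0.304 (0.526) and Etfdh, which passes the electrons on to ubiquinone, 0.73 ± 0.426 (0.531). Acot1 had 0.43 ± 0.439 (edgeR adjusted p of 0.721). With the brown adipocyte covariate the values of Acsl1, Ech1, Etfdh and Hadha turned negative.

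The Cpt1 forms differed in how they varied. Cpt1b was at 305.6, 405.8, 418.7 and 521.8 CPM in NFD, at 201.8, 310.7, 563.0 and 347.1 CPM in HFD, and at 875.3, 636.6, 461.7 and 801.2 CPM in HFD+TUDCA. Cpt1a stayed between 75.5 and 120.0 CPM in all 12 libraries, and it was the 1 member with a negative log2 fold change in HFD+TUDCA vs HFD (−0.17 ± 0.137, edgeR adjusted p of 0.646). The ratio of Cpt1b to Cpt1a was 3.72 to 5.38 in NFD, 1.68 to 5.58 in HFD and 4.53 to 10.3 in HFD+TUDCA, and all groups overlapped.

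None of the 97 tested genes of the 6 pathway lists was called in HFD+TUDCA vs HFD by edgeR, with 25 at an unadjusted p under 0.05, and 2 were called by DESeq2. The lowest p in each list, with the log2 fold change and the edgeR adjusted p in brackets, were those of Acss2 (1.17 ± 0.268, 0.218), Esrra, a receptor that drives oxidative genes (0.80 ± 0.249, 0.297), the peroxisomal import receptor Pex5 (0.49 ± 0.168, 0.332), the cycle enzyme Ogdh (1.06 ± 0.367, 0.343), the pyruvate dehydrogenase kinase Pdk2 (0.61 ± 0.214, 0.346) and Bdh1 (0.64 ± 0.365, 0.522). All 16 tricarboxylic acid cycle genes had a positive log2 fold change, with a median of 0.62.

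The third comparison, HFD+TUDCA vs NFD, sets both treatments together against the control diet. It shares its libraries with the other comparisons and is no independent check of them. Members were higher with the high-fat diet and TUDCA than on the normal diet, across most roles, but none was called. Of the 35 members 0 passed, against 0.194% of the 14942 genes tested. At an unadjusted p under 0.05 there were 25 members, all higher, against 6.79% of all genes. In 9 members every HFD+TUDCA library was above every NFD library, against 3.88% of all genes. These were Slc25a20, Acads, Acadvl, Eci2, Etfdh, Acot1, Acot2, Acaa1b and Ppara. The median log2 fold change was 0.75, against 0.0052 for all genes.

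The number of calls depended on the tool and on single libraries. DESeq2 called 15 members, all higher, among 533 genes called. Without HFD+TUDCA replicate 3, edgeR called 11 members among 140 genes. Without HFD+TUDCA replicate 4 it called 5 members, which were Acaa1b, Acot1, Acot2, Ppara and Slc25a20, among 682 genes. With the white adipocyte sum as a covariate 13 members were called among 156 genes. With the brown adipocyte sum 0 members and 6 genes were called, 6 members were at an unadjusted p under 0.05, and the median log2 fold change was 0.25. Of the brown adipocyte markers 1 of 9 tested was called higher, Elovl3, a fatty acid elongase (9.07 ± 3.77 to 187.2 ± 87.6 CPM).

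Acaa1b had the lowest p of the members, at 105.4, 50.4, 28.2 and 75.3 CPM in HFD+TUDCA, each above all NFD libraries (log2 fold change 2.46 ± 0.382, a 5.49-fold difference, edgeR adjusted p of 0.0571). Acot1, at 33.1, 12.1, 9.71 and 24.1 CPM, had a log2 fold change of 2.15 ± 0.408 (edgeR adjusted p of 0.0917). Acot2 had 1.86 ± 0.360 (edgeR adjusted p of 0.0976). Acaa1b, Acot1 and Acot2 were thus the members whose HFD and HFD+TUDCA libraries all lay above all NFD libraries. Ppara was at 80.9, 53.0, 43.5 and 98.5 CPM in HFD+TUDCA, with its highest values in replicates 1 and 4 (1.12 ± 0.257, edgeR adjusted p of 0.140). Slc25a20, the carnitine carrier of the inner membrane, was at 154.9, 222.2, 193.4 and 262.9 CPM in NFD and at 549.0, 455.4, 283.3 and 625.5 CPM in HFD+TUDCA (1.20 ± 0.257, edgeR adjusted p of 0.126). Ehhadh had 119.3, 112.8, 29.0 and 199.7 CPM in HFD+TUDCA, where replicate 3 fell in the NFD range (1.73 ± 0.474, edgeR adjusted p of 0.188).

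In the remaining roles, with the edgeR adjusted p in brackets, the log2 fold change was 0.84 ± 0.211 (0.164) for Acads, 0.75 ± 0.216 (0.197) for Ech1, 0.86 ± 0.247 (0.200) for Hadhb, 0.96 ± 0.280 (0.206) for Etfdh and 0.44 ± 0.271 (0.622) for Acsl1. The members with the smallest differences were Etfa, with a log2 fold change of 0.01 ± 0.249, Angptl4, with −0.02 ± 0.290, Cpt1a, with 0.11 ± 0.135, and Acot13, with 0.12 ± 0.158.

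None of the 97 tested genes of the pathway lists was called by edgeR. Of these genes 26 were at an unadjusted p under 0.05, against 11.5% of all genes. DESeq2 called 10 of them, against 3.57% of all genes. The lowest p in 5 of the lists, with the log2 fold change and the edgeR adjusted p in brackets, were those of Lpin1 (−0.83 ± 0.143, 0.0728), Acot4 (2.23 ± 0.471, 0.124), Slc27a2, an acyl-CoA synthetase and transporter (1.54 ± 0.328, 0.124), Ogdh (0.87 ± 0.190, 0.129) and Pdk2 (0.52 ± 0.186, 0.306). Acot3 had 15, 7, 1 and 11 counts in HFD+TUDCA, against 0 in all NFD libraries.

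**Figure D4:**
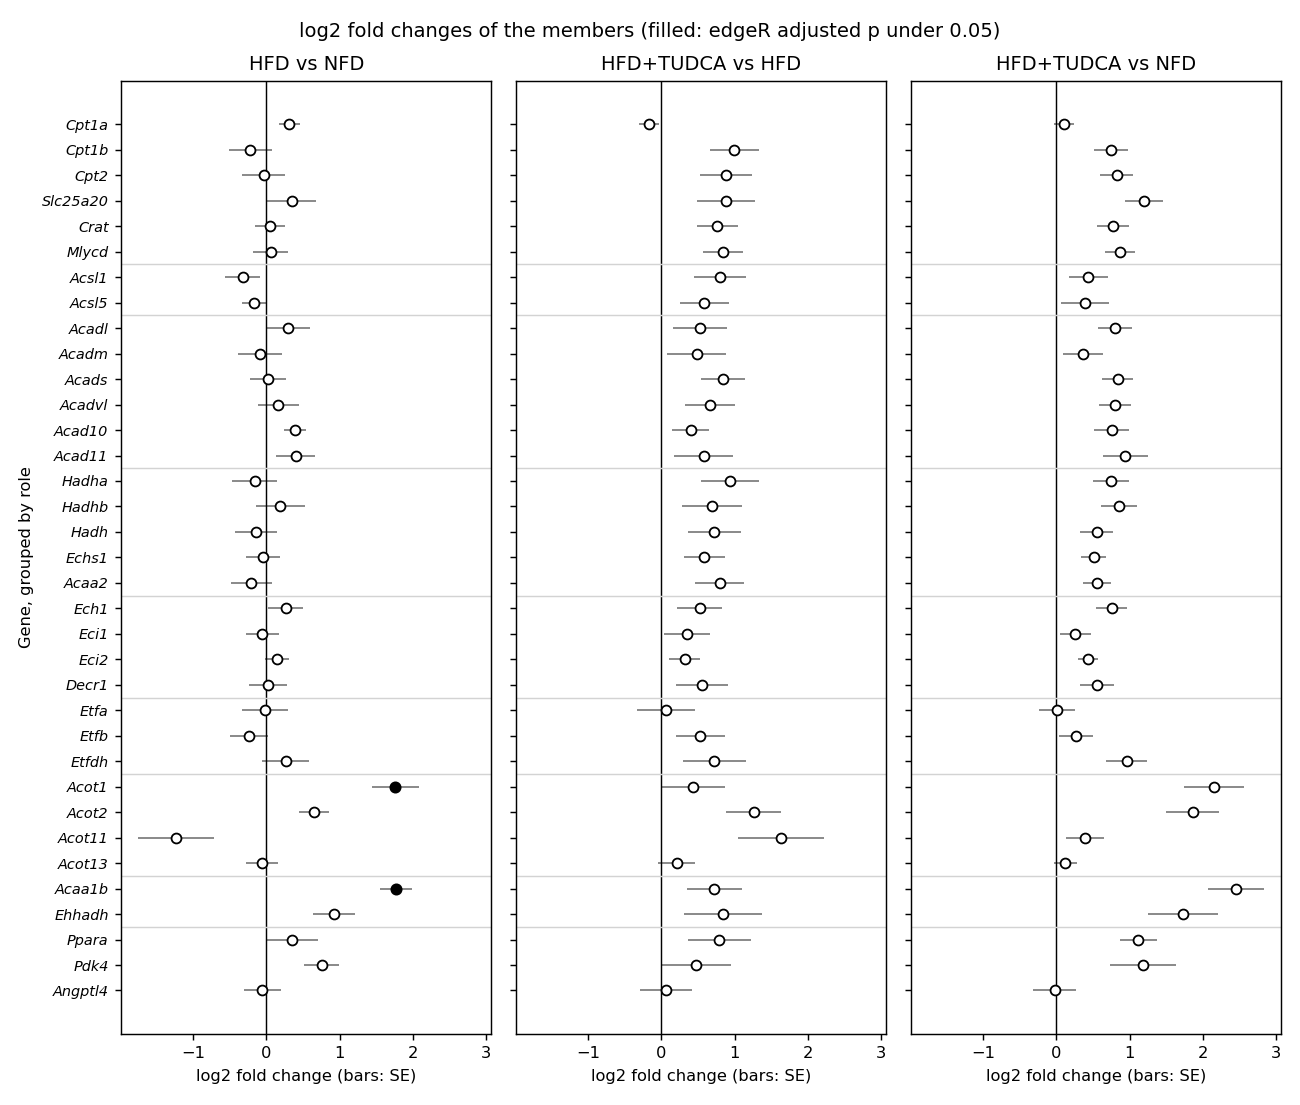
log2 fold change of each member (rows, by role) in the 3 comparisons, with SE as bars and filled points for an edgeR adjusted p under 0.05. Only Acaa1b and Acot1 in HFD vs NFD are filled, while 34 of 35 points lie above 0 in HFD+TUDCA vs HFD.

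Hadha and Hadhb encode the 2 subunits of the trifunctional protein, and their starts face away from each other on chromosome 5. Both genes moved together across libraries, as the members did in general, and a part of the stretch between them in this was not tested. The whole stretch between their annotated starts is 85 bases (chr5:30155163-30155247, plus strand, from the RefSeq promoter table on GRCm38.p6).
Hadha and Hadhb: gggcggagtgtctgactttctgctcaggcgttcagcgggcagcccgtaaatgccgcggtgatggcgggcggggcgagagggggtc
Hadha ran from 398.7 CPM in HFD replicate 1 to 1951 CPM in HFD+TUDCA replicate 4, and Hadhb from 807.4 to 3507 CPM in the same libraries. Their ratio stayed between 0.426 and 0.635 in all 12 libraries, with 0.558 to 0.635 in NFD, 0.426 to 0.508 in HFD and 0.531 to 0.556 in HFD+TUDCA. The ratio in HFD lay below that of both other groups without overlap. Of the windows of Hadhb, 51.0% are shared with the annotated gene Gm13910, which has no row in the table used.

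The promoter windows of the members, from 250 bases before to 50 after the start, were searched on both strands for the PPAR response element, a repeat of AGGTCA with 1 base between. RefSeq had 31 windows for 29 of the 35 members. The exact repeat AGGTCANAGGTCA was in 0 of 31, against 0.0396% of 32851 windows of all genes, and the looser AGGNCANAGGNCA in 0 of 31, against 0.381%. The half-site AGGTCA was in 4 windows, those of Acadm, Echs1, Acadvl and Cpt1a, against 16.3% of all windows. A missing match says only that these letters are not in this window.

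**Figure D5:**
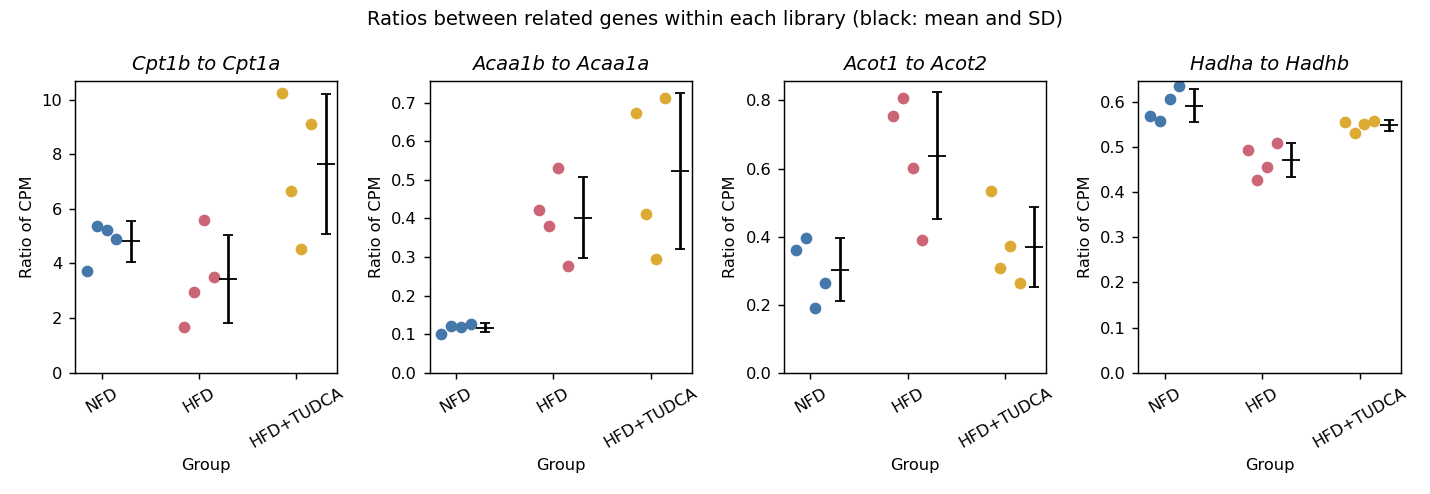
Ratio of the CPM of related genes within each library (points, in replicate order), with mean and SD in black, by group. Acaa1b to Acaa1a lies at 0.0994 to 0.127 in NFD and higher in every other library, while Hadha to Hadhb stays between 0.426 and 0.635.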

How the data were processed

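The values come from RNA sequencing of mouse aorta, 12 libraries in 3 groups of 4 named by the sample titles. Total RNA was selected for poly(A) and prepared with the NEBNext Ultra kit, per the labels' protocols. Reads were placed on GRCm38, per the submitters' processing notes. Which aligner, counter and annotation were used is not given in the sources used for this work. The authors deposited, per the file headers, 1 count and 1 FPKM value for each gene and library. These deposited values were treated as estimated counts, and not as whole reads, since 8.53% to 9.43% of a library's values were not whole, and were rounded for the tests. Dividing reads between near copies can move their counts, and FPKM depends on a gene length not given.

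Each pair of groups (8 libraries) was fitted with edgeR 4.0.16 in R 4.3.3, by its robust quasi-likelihood test with TMM scaling. Low genes were removed by filterByExpr (at least 10 counts, and 15 in total), and p-values were adjusted by Benjamini-Hochberg over all genes tested. The fit was also run on simulated counts in which each gene varied on its own, with an outcome not reported here. The members vary together across libraries, so that run does not show how the fit behaves for them as a set. The members and gene lists were chosen with earlier results of these data known. Full statistics are given for called members and, in each comparison, for the member of each role with the lowest unadjusted p. Pathway genes are named if called, otherwise the one with the lowest unadjusted p in each list, except some not reported here; further members are given with values chosen after these were seen, as are the ratios and the marker genes Ucp1 and Elovl3. Liver, adrenal, airway, skeletal muscle and endothelial marker lists were read too.

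In HFD vs NFD, libraries with the same replicate number deviated together (correlations of 0.130 to 0.308, and 6 of 8 libraries correlated best with their own number). By a threshold of 0.1 the numbers were treated as a possible pairing of the samples, and what gave rise to these correlations was not tested. This pairing comes from the data, not from the labels. The main fits did not use it, so their p-values are unpaired. It entered only as the replicate block among the alternatives, where 3 members were called in HFD vs NFD in place of 2. Alternatives were upper-quartile or RLE scaling, tests by DESeq2 1.42.0 and by limma 3.58.1 on log2(FPKM + 1) and log2(FPKM + 0.1), other filters of low counts (none, or a mean of 1 CPM), 1 fit of all 12 libraries, the replicate block, marker sums as covariates and each library left out. Leaving out the libraries that lay farthest, summing near copies and other CPM factors were added after seeing the data. Python 3.11.15 with pandas 2.3.3 and matplotlib 3.10.9 served for tables and figures.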

Additional observations from a re-analysis of the deposited data

Results flagged for a closer look

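Of 105 groups of 4 libraries (35 members in 3 groups), 3 held a library far from the other 3 by Dixon's criterion, and chance gives about 1 in 20. In each case the value was that of replicate 3, the highest of its group. Acot13, a thioesterase of the mitochondrial surface, was at 53.5 CPM in NFD replicate 3, where the other NFD libraries lay at 39.8 to 40.7 CPM. It was at 63.7 CPM in HFD replicate 3, with the other HFD libraries at 33.7 to 35.7 CPM. Acaa1b was at 54.0 CPM in HFD replicate 3, with the others at 34.1 to 37.4 CPM; its call in HFD vs NFD was kept in all 8 fits that left out 1 library, with edgeR adjusted p from 0.00452 to 0.0217.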

How the results depend on the processing

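In HFD vs NFD, 2 members and 3 pathway genes were called. DESeq2 gave 4 and 7, the replicate block 3 and 5, the heart covariate 0 members and the brown adipocyte covariate 1, and the white adipocyte covariate 0 pathway genes. Over all genes, 720 were called in the main fit, 1686 (11.4%) by DESeq2 and 776 with the replicate block. With the heart, brown and white adipocyte covariates 160, 201 and 37 of all genes were called. Leaving out 1 library gave 1 to 3 members and 1 to 10 pathway genes, with 1 member without NFD replicate 1, 3 or 4, and 10 pathway genes without HFD replicate 3. Calls over all genes then ran from 178 without NFD replicate 3 to 1181 without HFD replicate 3. The members' median of 0.05 turned to −0.016 with upper-quartile scaling and to −0.10 and −0.11 with limma on log2(FPKM + 1) and log2(FPKM + 0.1). It was 0.45 with the white adipocyte covariate, 0.03 with the replicate block and −0.20 to 0.18 without 1 library, being negative without NFD replicate 1 and without HFD replicate 3.

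Single values that changed sign in HFD vs NFD were those of Acaa2 (0.32, 0.20 and 0.10 with the heart, brown and white adipocyte covariates, −0.49 to 0.0026 without 1 library, and 0.052 without HFD replicates 1 and 4), Etfb (0.37, 0.20 and 0.085 with these covariates) and Acsl1 (0.092 with the white adipocyte covariate). In HFD+TUDCA vs HFD the brown adipocyte covariate gave −0.036 for Acsl1, −0.23 for Ech1, −0.18 for Etfdh, −0.037 for Hadha and −0.037 for the median. The white adipocyte covariate gave −0.22 for Acot1, and leaving out the 3 farthest libraries gave −0.063 for Acot1, −0.089 for Etfdh and 0.20 for the median. In HFD+TUDCA vs NFD the brown adipocyte covariate gave −0.21 for Acsl1. The median without the 3 libraries is lower by construction, as these hold extreme member sums; the cause of the other changes was not tested.

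In HFD+TUDCA vs HFD no alternative called a member, and DESeq2 called 2 pathway genes. The median was 0.51 to 0.90 without 1 library. The replicate block called 0 members and 0 pathway genes, with a median of 0.64. In HFD+TUDCA vs NFD, where 0 members and 0 pathway genes were called, DESeq2 gave 15 and 10, limma 1 and 1 at both pseudocounts, 1 fit of all libraries 1 member, the heart covariate 1 and 1, the white adipocyte covariate 13 and 8, and leaving out 1 library 0 to 11 and 0 to 7. Over all genes, 29 were called in the main fit, 533 by DESeq2, 47 and 43 by limma and 22 in the fit of all libraries. The heart and white adipocyte covariates called 151 and 156 genes, and leaving out 1 library 4 to 682. The brown adipocyte covariate lowered the median from 0.75 to 0.25, and the replicate block gave 0, 0 and 0.72. In both HFD+TUDCA comparisons same-numbered libraries deviated in opposite ways or not together (correlations of −0.461 to −0.0341, and 0 of 8 libraries correlated best with their own number), so there the samples share only a number. With log2(FPKM + 0.1) the median of all genes in HFD+TUDCA vs NFD was −0.13 in place of 0.0052. The replicate block changed no other call of a named member than that of Pdk4. Depth limited the low genes, such as Acot3, with 0 to 15 counts per library and no test.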

Other observations

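Marker lists of further tissues showed how much the dissected tissue varied between libraries. Adrenal cortex markers summed to 39.2 to 7319 CPM in NFD, 30.7 to 4610 CPM in HFD and 30.9 to 43.3 CPM in HFD+TUDCA. Airway epithelial markers summed to 2356 to 6430 CPM in NFD, 24.9 to 2428 CPM in HFD and 6.03 to 5103 CPM in HFD+TUDCA. Of these 1 of 10 was called lower in HFD vs NFD, and all 10 had a negative log2 fold change. Skeletal muscle markers summed to 141 to 1923 CPM, 52.8 to 1287 CPM and 22.9 to 1590 CPM in the same order. Liver markers summed to 1541 to 3439 CPM, 1397 to 3295 CPM and 668 to 3291 CPM, and 3 of 7 tested fell in HFD vs NFD. Most of this sum was 1 gene, Cyp2e1, with means of 2355, 2139 and 1779 CPM against mean sums of 2427, 2165 and 1822 CPM. The 3 that fell, Ahsg, Apoa1 and Alb, reached at most 29.5, 5.02 and 40.7 CPM in any library. The liver sum thus mainly follows Cyp2e1, and how much liver tissue a library held was not tested. Endothelial markers summed to 1616 to 2002 CPM, 1383 to 2031 CPM and 1298 to 1715 CPM, and smooth muscle markers to 3765 to 4668 CPM, 2334 to 3855 CPM and 2915 to 6202 CPM. Of the macrophage markers, 0 of 10 were called by edgeR in HFD+TUDCA vs HFD, with 9 at an unadjusted p under 0.05, and their sum was 841 to 1355 CPM in HFD+TUDCA. In HFD+TUDCA vs NFD 2 of them were called higher.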
